A study of Homo sapiens with 45 samples.

Results

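The ZIC genes ZIC1, ZIC4, ZIC2 and ZIC5 were followed through the chromatin contacts of fragments at their ends, in human embryonic stem cells with and without Polycomb inhibition. The 4 genes stand as 2 divergent pairs. ZIC4 (chr3:147386046-147406543, minus strand) and ZIC1 (chr3:147409365-147416719, plus strand) start 2821 bp apart. ZIC5 (chr13:99962964-99971909, minus strand) and ZIC2 (chr13:99981784-99986765, plus strand) start 9874 bp apart. Positions are those of RefSeq on GRCh38. The members were the cis pairs, with both fragments on the same chromosome, in which either fragment lay within 1000 bp of an annotated end of a ZIC gene. There were 59 such pairs among 152688 cis pairs and 434524 pairs in all. ZIC4 had 27 pairs, ZIC5 had 27, ZIC1 had 5 and ZIC2 had 0.

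ZIC genes encode zinc finger transcription factors of the early neural plate, the dorsal neural tube and the neural crest. ZIC2 and ZIC5 are also known as genes of primed pluripotent cells, whereas ZIC1 and ZIC4 are best known from the cerebellum, where loss of both is linked to Dandy-Walker malformation. The CpG-rich starts of such developmental genes are classic targets of Polycomb repressive complex 2 (PRC2), which methylates histone H3 and is associated with contacts between distant target regions. Poised enhancers are regulatory elements that carry the PRC2 mark before their target genes are used.

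Contacts were measured by poised-enhancer capture Hi-C in HNES1, 1 established embryonic stem cell line, on day 5 of the transition from the naive to the primed state. In this assay, DNA of fixed nuclei is cut with the enzyme DpnII, fragments that lie together are joined, and those holding a poised enhancer (the baits) are pulled down. Cells of the same line received UNC6852 at 2.5 µM, a degrader of the PRC2 subunit EED, UNC1999 at 1 µM, an inhibitor of the catalytic subunits EZH1 and EZH2, or the solvent DMSO. The compounds were added before the transition began and renewed daily, and the control cells had the solvent alone. Each condition had 15 libraries, from 3 biological replicates with 4 technical libraries each in batch 1 and 1 each in batch 2. All 15 entered 1 pooled column of scores, so no spread between replicates can be given and no test was made. The doses differ, so neither compound is ranked against the other, and both are set against the same DMSO profile. The files hold no measure of expression, EED protein or histone marks, so neither the cell state nor the action of the compounds was checked here.

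Each value is a CHiCAGO score, which rises as ligation reads between the bait and its other end exceed the number modelled for that distance. Scores of 5 or more counted as calls, and the files list a pair only where at least 1 of the 3 profiles reaches 5. A pair can therefore be listed for its DMSO score alone, and its treated scores then lie under 5. Over all cis pairs, 46.1% were called in UNC6852, 42.3% in UNC1999 and 42.4% in DMSO. Read numbers behind the scores are unknown.

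DpnII cuts at GATC, so the sequence at the gene starts shows where fragment borders can lie. RefSeq promoter windows of GRCh38.p14, running from 250 bases before to 50 after an annotated start, are shown for the 4 genes. They are read 5′ to 3′ on the gene's strand, with GATC and every CG in capitals.
ZIC4, chr3:147406494-147406793, minus strand: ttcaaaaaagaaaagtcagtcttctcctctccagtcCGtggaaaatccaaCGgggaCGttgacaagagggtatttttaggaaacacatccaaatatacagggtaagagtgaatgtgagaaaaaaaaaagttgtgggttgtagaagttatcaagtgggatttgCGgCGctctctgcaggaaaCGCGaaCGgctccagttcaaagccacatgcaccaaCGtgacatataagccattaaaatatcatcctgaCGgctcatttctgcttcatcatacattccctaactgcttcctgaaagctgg
ZIC4, chr3:147405471-147405770, minus strand: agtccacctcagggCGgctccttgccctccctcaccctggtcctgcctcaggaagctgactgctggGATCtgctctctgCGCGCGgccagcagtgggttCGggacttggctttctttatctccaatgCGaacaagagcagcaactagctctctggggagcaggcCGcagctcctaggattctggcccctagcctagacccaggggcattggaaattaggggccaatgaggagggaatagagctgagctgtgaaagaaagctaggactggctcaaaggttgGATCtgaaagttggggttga
ZIC1, chr3:147409115-147409414, plus strand: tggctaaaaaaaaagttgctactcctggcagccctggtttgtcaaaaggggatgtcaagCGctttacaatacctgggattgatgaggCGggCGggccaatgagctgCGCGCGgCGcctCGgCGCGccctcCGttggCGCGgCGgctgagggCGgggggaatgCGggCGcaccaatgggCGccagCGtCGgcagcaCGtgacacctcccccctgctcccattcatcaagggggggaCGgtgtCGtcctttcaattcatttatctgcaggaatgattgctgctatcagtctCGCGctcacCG
ZIC5, chr13:99971860-99972159, minus strand: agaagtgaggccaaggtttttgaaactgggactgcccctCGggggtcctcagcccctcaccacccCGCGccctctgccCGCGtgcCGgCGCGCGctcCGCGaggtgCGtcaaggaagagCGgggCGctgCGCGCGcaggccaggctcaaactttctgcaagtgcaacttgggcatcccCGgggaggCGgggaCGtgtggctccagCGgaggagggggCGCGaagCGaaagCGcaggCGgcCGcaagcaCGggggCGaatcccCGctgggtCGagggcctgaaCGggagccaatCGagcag
ZIC2, chr13:99981534-99981833, plus strand: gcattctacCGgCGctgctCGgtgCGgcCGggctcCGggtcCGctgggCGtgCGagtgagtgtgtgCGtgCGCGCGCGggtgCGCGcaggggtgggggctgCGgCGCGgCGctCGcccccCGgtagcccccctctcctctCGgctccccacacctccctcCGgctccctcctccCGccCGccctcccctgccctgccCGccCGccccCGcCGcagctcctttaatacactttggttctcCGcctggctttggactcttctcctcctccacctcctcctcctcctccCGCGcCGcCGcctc
Of 35116 such windows in the annotation, 41.7% hold a GATC, and the median window holds 14 CG. The ZIC4 window at chr3:147405471-147405770 holds 2 GATC sites, at 147405487 and 147405701, and both are starts of captured fragments. The ZIC4 window at chr3:147406494-147406793 holds none and lies whole within 1 captured fragment, chr3:147406383-147406999. These 2 ZIC4 windows are under the median in CG. The first named holds 7, which 63.2% of all windows reach, and the second 10, which 56.4% reach. Windows at other ZIC4 starts, not shown, hold 21 and 2. The ZIC1 window holds 26 CG, a number that 30.1% of all windows reach, and the ZIC2 window holds 35, which 14.1% reach. Neither the ZIC1 nor the ZIC2 start lies in a fragment that the files list. The ZIC5 window, with 33 CG, lies in chr13:99968123-99973211, which is listed in contacts with other chromosomes and in no cis pair. In cis, listed fragments thus cover starts of ZIC4 and not the windows shown for ZIC1, ZIC2 and ZIC5.

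Fragments of the 2 kinds differ in size. Captured fragments have a median length of 629 bp and uncaptured other ends one of 5266 bp. In promoter windows, 7982 of 8762 GATC sites inside uncaptured other ends lie away from their start, against 0 of 751 inside captured fragments. An uncaptured other end is thus a bin of several DpnII fragments and places a contact to about its own length.

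ZIC4 carried fewer called contacts in both treated profiles than in DMSO, ZIC5 about as many, and ZIC1 had few pairs. Over the 59 pairs, 24 were called in UNC6852, 22 in UNC1999 and 32 in DMSO, which is 40.7% in UNC6852, 37.3% in UNC1999 and 54.2% in DMSO. Of all cis pairs it was 46.1% in UNC6852, 42.3% in UNC1999 and 42.4% in DMSO. At ZIC4, 7 of the 27 pairs were called in UNC6852, 7 in UNC1999 and 17 in DMSO. Of the 27 ZIC5 pairs it was 15 in UNC6852, 13 in UNC1999 and 14 in DMSO. Of the 5 ZIC1 pairs it was 2 in UNC6852, 2 in UNC1999 and 1 in DMSO. Among these 59 pairs, the lower totals of the treated profiles thus came from ZIC4. ZIC2 had 0 pairs within 1000 bp and could not add to them. Of the 17 DMSO calls at ZIC4, 13 scored under 7, and at a threshold of 7 there were 2 calls in UNC6852, 1 in UNC1999 and 4 in DMSO. With gene ends taken to 5000 bp, which brings in more captured fragments at each gene, 47 pairs were called in UNC6852, 59 in UNC1999 and 78 in DMSO. At that width ZIC2 too had fewer treated calls, 6 in UNC6852 and 5 in UNC1999 against 10 in DMSO over 18 pairs.

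Most contacts reached the threshold in a single profile, here as elsewhere. Of the 59 pairs, 46 were called in exactly 1 profile, 7 in exactly 2 and 6 in all 3. Over all cis pairs, 77.5% were called in exactly 1 profile and 8.33% in all 3. ZIC4 had 1 pair called in all 3 profiles and ZIC5 had 5. Of the DMSO calls at ZIC4, 2 of 17 were also called in UNC6852 (11.8%, exact 95% binomial interval 1.46% to 36.4%), beside 31.4% over all cis pairs. For UNC1999 it was 1 of 17 (5.88%, 0.149% to 28.7%), beside 29.3%. Of the DMSO calls at ZIC5, 9 of 14 were also called in UNC6852 (64.3%, 35.1% to 87.2%) and 5 of 14 in UNC1999 (35.7%, 12.8% to 64.9%). These intervals cover counting error only and take pairs as independent, although pairs share baits. Over all cis pairs under 100 kb, the kept share was 43.1% in UNC6852 and 40.9% in UNC1999. Of the ZIC4 calls in DMSO, 10 lay under 100 kb, of which 2 were also called in UNC6852 and 1 in UNC1999. The ZIC5 share in UNC6852 was 16.7% at a threshold of 7 and 33.3% with gene ends taken to 5000 bp, beside the 31.4% of all cis pairs. For comparison between the treated profiles, 8 of the 24 UNC6852 calls at the 4 genes were also called in UNC1999 (33.3%), and 8 of the 22 UNC1999 calls in UNC6852 (36.4%). Of these 8 shared calls, 6 were at ZIC5, 2 at ZIC4 and 0 at ZIC1. At ZIC4 alone, 2 of the 7 UNC6852 calls were thus also called in UNC1999, too few to gauge its kept shares.

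ZIC4, a zinc finger factor of the developing cerebellum, was contacted through captured fragments at both of its ends. The 2 baits at its 3′ end, chr3:147384240-147385071 and chr3:147385072-147385589, had 10 pairs, of which 1 was called in UNC6852, 1 in UNC1999 and 8 in DMSO. Their mean asinh score, a log-like scale that allows for scores of 0, was 1.33 in UNC6852, 0.75 in UNC1999 and 2.09 in DMSO. The 17 pairs at the 5′ end gave 6 calls in UNC6852, 6 in UNC1999 and 9 in DMSO, and means of 2.12 in UNC6852, 1.78 in UNC1999 and 1.93 in DMSO. Among them is a contact 127863 kb away that scored 12.1 in UNC6852 and 0 in both UNC1999 and DMSO. The excess of DMSO calls was thus denser at the 3′ end of the gene, whose baits reached mostly to the far side of ZIC1.

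Of the 8 DMSO calls at the 3′ end, 5 lay 223 to 271 kb away, beyond ZIC1, in uncaptured bins with no annotated gene end. The bait chr3:147384240-147385071 scored 2.37 in UNC6852, 0.52 in UNC1999 and 7.04 in DMSO with chr3:147653224-147658449, at 271 kb. The neighbouring bait chr3:147385072-147385589 scored 0.83 in UNC6852, 0.24 in UNC1999 and 5.17 in DMSO with the same bin. It scored 0.81 in UNC6852, 2.06 in UNC1999 and 5.28 in DMSO with chr3:147605551-147610859, at 223 kb. In each of the 3 pairs the DMSO score alone passed 5, and the 2 treated scores lay under 2.5. Between chr3:147567238 and chr3:147658449, baits at the ends of ZIC4 and ZIC1 had 7 pairs, with 0 calls in UNC6852, 1 in UNC1999 and 6 in DMSO. The 11 other baits within 10 kb of the gene pair had 13 pairs to this stretch, with 4 calls in UNC6852, 7 in UNC1999 and 4 in DMSO. The stretch was set by the gene-end pairs' own bins. Just outside it and also beyond ZIC1, the 5′-end bait chr3:147405701-147406382 scored 5.41 in UNC6852, 0.50 in UNC1999 and 0 in DMSO with chr3:147556975-147562033, 153 kb away, so this pair went the other way.

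Longer 3′-end contacts went both ways. With the captured fragment chr3:146780021-146781251, 604 kb away on the other side, the bait chr3:147384240-147385071 scored 2.20 in UNC6852, 0.73 in UNC1999 and 8.39 in DMSO. With chr3:148015366-148020551, 633 kb away, it scored 0 in UNC6852, 0 in UNC1999 and 5.11 in DMSO. The bait beside it scored 6.54 in UNC6852 and 0 in both UNC1999 and DMSO with a bin 3843 kb away, a contact of the opposite kind.

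At the 5′ end the strongest contacts ran back across the gene and beyond its 3′ end. The bait chr3:147405701-147406382, which begins at a GATC of the ZIC4 window printed above, scored 7.39 in UNC6852, 7.71 in UNC1999 and 10.1 in DMSO with the captured fragment chr3:147355598-147355978, 50.3 kb away. That was the ZIC4 pair called in all 3 profiles. Its neighbours on either side, chr3:147405487-147405700 and chr3:147406383-147406999, had that fragment as their sole listed cis partner. They scored 3.65 and 3.12 in UNC6852, 5.21 and 5.46 in UNC1999, and 2.61 and 3.55 in DMSO. The contact of the 3 adjoining baits thus stood above 2.5 in every profile, and was highest in DMSO for the strongest of them and in UNC1999 for the other 2.

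Other 5′-end contacts differed in order between profiles. With the captured fragment chr3:147361915-147362283, 43.9 kb away, the bait chr3:147405701-147406382 scored 4.33 in UNC6852, 3.02 in UNC1999 and 10.5 in DMSO. With chr3:147369176-147370313, 36.3 kb away, it scored 3.23 in UNC6852, 6.09 in UNC1999 and 3.69 in DMSO. Its contact with a bin 127863 kb away scored 12.1 in UNC6852, 0 in UNC1999 and 0 in DMSO, the highest score of any ZIC4 pair and seen in 1 profile. The fragment chr3:147407000-147408108, between ZIC4 and ZIC1, was the other end of 5 pairs with baits at lower coordinates outside the gene ends. Of these the pair with chr3:147371765-147372014, 35.7 kb away, scored 6.33 in UNC6852, 6.09 in UNC1999 and 0.95 in DMSO, so it was the treated profiles that were high.

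Both fragments were captured in 16 of the 27 ZIC4 pairs, against 2.84% of all cis pairs. The 2 sets are not matched for distance, with medians of 36.0 kb for the 16 and 314 kb for all cis pairs. In 5 of the 16 the sole ZIC4 fragment was the other end, so the partner was a bait by definition. The baits chr3:147385072-147385589 and chr3:147405701-147406382 each also had a pair with chr3:147407000-147408108, itself a ZIC4 fragment. The first of these pairs, counted above at the 3′ end, joined it to the 5′ end, at 2.90 in UNC6852, 2.32 in UNC1999 and 6.70 in DMSO. Among these 16, calls numbered 4 in UNC6852, 6 in UNC1999 and 10 in DMSO. Among the 11 pairs with an uncaptured bin they numbered 3 in UNC6852, 1 in UNC1999 and 7 in DMSO. DMSO thus had the most calls in both classes. In 3 ZIC4 pairs the partner lay at an end of a protein-coding gene, the same one each time, and each of these pairs was called in 1 profile.

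**Figure D1:**
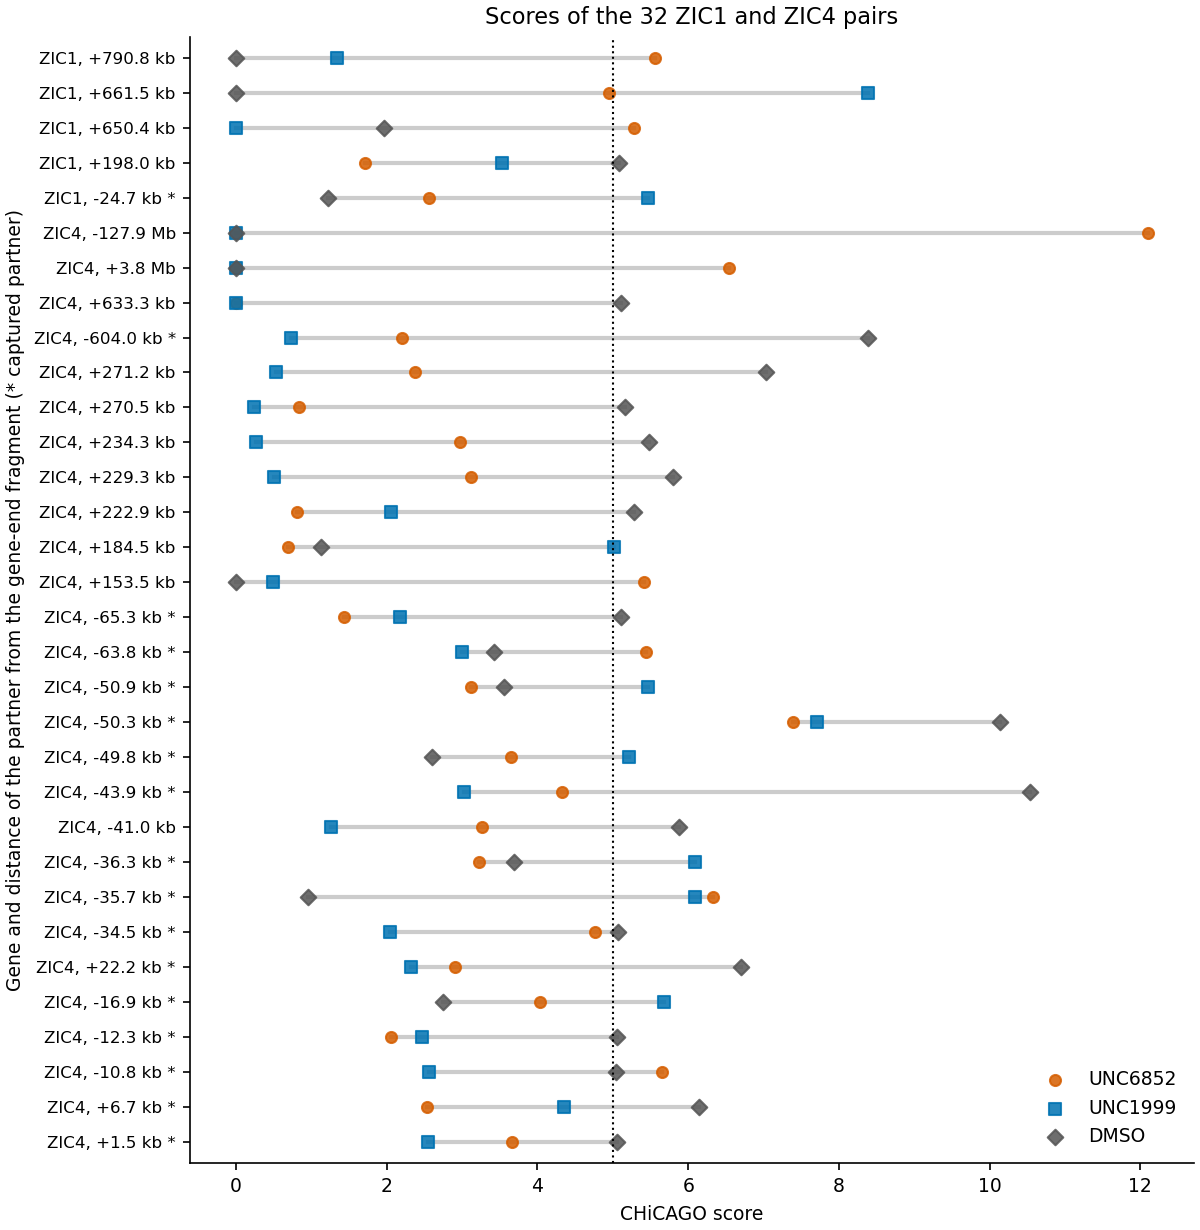
CHiCAGO scores of the 5 ZIC1 and 27 ZIC4 pairs, 1 row a pair, with the distance of the partner from the gene-end fragment (positive toward higher coordinates) and a grey bar over the range of the 3 pooled profiles. The dotted line marks the call threshold of 5, and DMSO has 17 ZIC4 pairs at or beyond it where UNC6852 and UNC1999 have 7 each.

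ZIC1, a regulator of neural crest and cerebellar development, was represented by 1 captured fragment at its 3′ end, chr3:147415546-147416274. Its highest score was with chr3:148074387-148080492, 662 kb away at an end of the long noncoding RNA LINC02032 (named after its values were seen), at 4.95 in UNC6852, 8.39 in UNC1999 and 0 in DMSO. A pair at 791 kb scored 5.56 in UNC6852, 1.34 in UNC1999 and 0 in DMSO, and one at 650 kb scored 5.28 in UNC6852, 0 in UNC1999 and 1.96 in DMSO. These far bins were thus called in a treated profile and not in DMSO. Nearer by, the captured fragment chr3:147390882-147391541 inside ZIC4, 24.7 kb away, scored 2.57 in UNC6852, 5.47 in UNC1999 and 1.22 in DMSO. The bin chr3:147610860-147617053, at 198 kb and also a partner of the ZIC4 3′ end, scored 1.71 in UNC6852, 3.53 in UNC1999 and 5.08 in DMSO and was the sole DMSO call of the gene.

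ZIC5 contacts ran from 1 captured fragment, chr13:99961447-99962545, which lies 419 bp beyond the 3′ end of the gene. It was the bait in 26 of the 27 pairs, so these pairs share their source. They fell in 2 stretches of bins, 18 pairs on the side of CLYBL at 211 to 359 kb and 8 pairs on the side of PCCA at 500 to 586 kb. CLYBL encodes citramalyl-CoA lyase, a mitochondrial enzyme, and PCCA the alpha subunit of propionyl-CoA carboxylase. On the CLYBL side 9 pairs were called in UNC6852, 11 in UNC1999 and 9 in DMSO. On the PCCA side it was 5 in UNC6852, 2 in UNC1999 and 5 in DMSO. With other ends at most 2 fragments apart taken as 1, the ZIC5 calls became 6 in UNC6852, 2 in UNC1999 and 4 in DMSO, as many adjoining bins then counted once.

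The 5 ZIC5 contacts called in all 3 profiles were also its 5 contacts of highest mean score. The strongest lay at chr13:99687915-99693204, 271 kb away within CLYBL, at 12.6 in UNC6852, 12.3 in UNC1999 and 6.35 in DMSO. That bin holds an end of the antisense transcript CLYBL-AS2, named after its values were seen. The second was chr13:100524648-100530142, 565 kb away, at 8.75 in UNC6852, 10.3 in UNC1999 and 8.05 in DMSO. It lies at annotated ends of both PCCA and GGACT, which encodes gamma-glutamylamine cyclotransferase. Within CLYBL, chr13:99654782-99661411, at 304 kb, scored 8.32 in UNC6852, 10.1 in UNC1999 and 6.42 in DMSO. These 3 contacts were higher in both treated profiles than in DMSO.

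The remaining 2 stood the other way round. The bin chr13:99600724-99606015, 359 kb away and within 1000 bp of an end of CLYBL, scored 5.42 in UNC6852, 5.26 in UNC1999 and 10.4 in DMSO. The bin chr13:99621994-99627088, at 337 kb, scored 5.77 in UNC6852, 5.66 in UNC1999 and 8.55 in DMSO. The CLYBL patch was thus highest at its far edge in DMSO and nearer its middle in the treated profiles, as the plot of ZIC5 scores by distance shows. A second bin at the same end of CLYBL, 353 kb away, was called in UNC1999 alone.

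**Figure D2:**
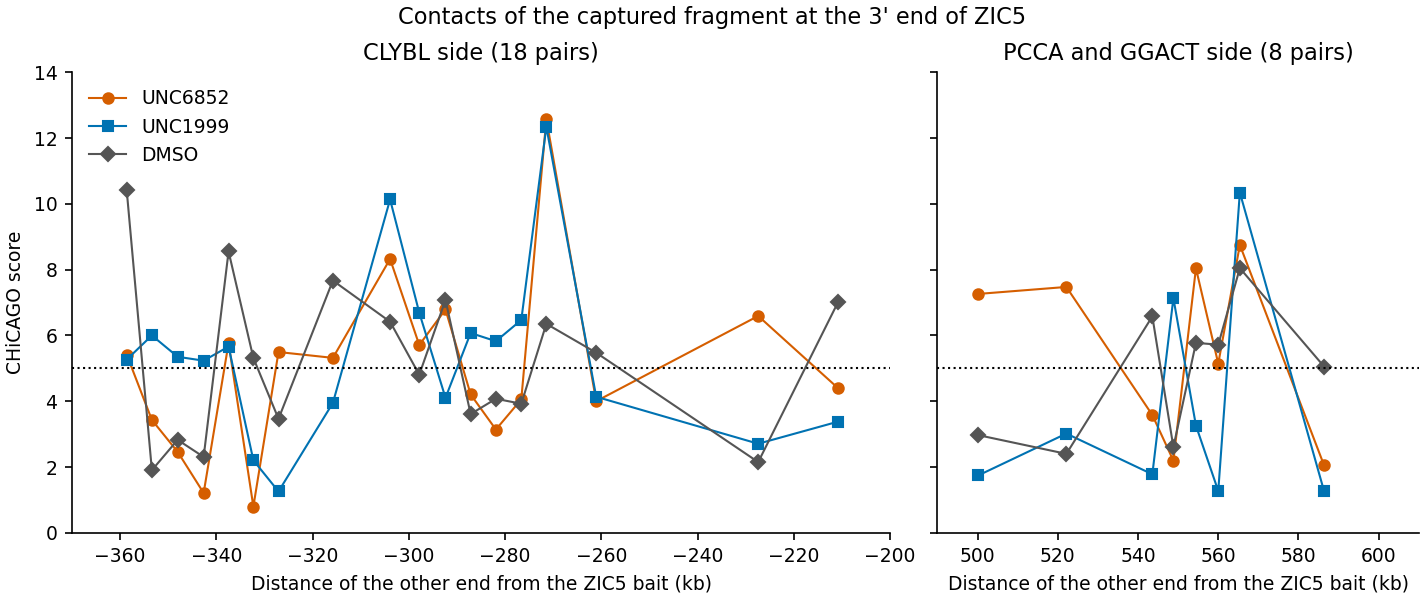
CHiCAGO scores of 26 ZIC5 pairs against the distance of the other end from the captured fragment at the 3′ end of the gene, with lines joining listed pairs and the dotted line at the call threshold of 5. On the left the peak at 271 kb stands at 12.6 in UNC6852 and 12.3 in UNC1999 against 6.35 in DMSO, and on the right all 3 profiles peak at 565 kb.

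Single ZIC5 bins moved in either direction around these contacts. The largest fall for UNC6852 was at chr13:99627089-99632294 in CLYBL, with 0.80 in UNC6852, 2.21 in UNC1999 and 5.32 in DMSO. The largest gain for UNC6852 was at chr13:100481601-100486688 before the main PCCA contact, with 7.47 in UNC6852, 3.02 in UNC1999 and 2.40 in DMSO. For UNC1999 the largest gain was at chr13:99606016-99611199, with 3.43 in UNC6852, 6.0 in UNC1999 and 1.90 in DMSO. For UNC1999 the largest fall was in the 1 ZIC5 pair between captured fragments. There chr13:99990562-99992028, on the far side of ZIC2, scored 5.73 in UNC6852, 0 in UNC1999 and 4.21 in DMSO with the ZIC5 fragment, 29.3 kb away. Bins beside each other could thus differ in which profile was highest.

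The remaining contacts of large difference lay in the same 2 stretches. In CLYBL, chr13:99730859-99738293 scored 6.59 in UNC6852, 2.71 in UNC1999 and 2.15 in DMSO, and chr13:99616732-99621993 scored 1.21 in UNC6852, 5.23 in UNC1999 and 2.31 in DMSO. Each was called in 1 treated profile. On the PCCA side, chr13:100459328-100464986 scored 7.26 in UNC6852, 1.74 in UNC1999 and 2.97 in DMSO, while chr13:100508129-100513522 scored 2.19 in UNC6852, 7.13 in UNC1999 and 2.61 in DMSO. Lower in UNC1999 than in DMSO were chr13:100519376-100524647, next to the main PCCA contact, at 5.14 in UNC6852, 1.27 in UNC1999 and 5.72 in DMSO, and chr13:100545730-100551060, inside GGACT, at 2.05 in UNC6852, 1.27 in UNC1999 and 5.05 in DMSO.

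Both main ZIC5 contacts were also reached from other captured fragments around the gene pair. The bin chr13:99687915-99693204 was paired with 6 of them, with 4 calls in UNC6852, 4 in UNC1999 and 1 in DMSO. The bin at the ends of PCCA and GGACT was likewise paired with 6, with 3 calls in UNC6852, 2 in UNC1999 and 3 in DMSO. The 12 other baits within 10 kb of the gene pair that reached the CLYBL stretch had 45 pairs there, with 13 calls in UNC6852, 21 in UNC1999 and 16 in DMSO. Those reaching the PCCA stretch, 8 baits with 23 pairs, had 7 in UNC6852, 7 in UNC1999 and 13 in DMSO. The 2 main contacts are thus not those of the ZIC5 fragment alone. Some other named bins were paired with 0 of these baits, such as chr13:99627089-99632294 and chr13:99606016-99611199.

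ZIC2, the partner of ZIC5 and a gene mutated in holoprosencephaly, had no cis pair at its ends. The captured fragments nearest to it were chr13:99977506-99978030, 3754 bp before its start, and chr13:99989417-99989660, 2652 bp past its end. The first had 7 cis pairs, with 2 calls in UNC6852, 3 in UNC1999 and 4 in DMSO, and the second had 6, with 2 in UNC6852, 2 in UNC1999 and 3 in DMSO. Taking the gene ends to 5000 bp gave ZIC2 18 pairs, with 6 calls in UNC6852, 5 in UNC1999 and 10 in DMSO. The mean asinh difference over those 18 was -0.45 for UNC6852 minus DMSO and -0.74 for UNC1999 minus DMSO.

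**Figure D3:**
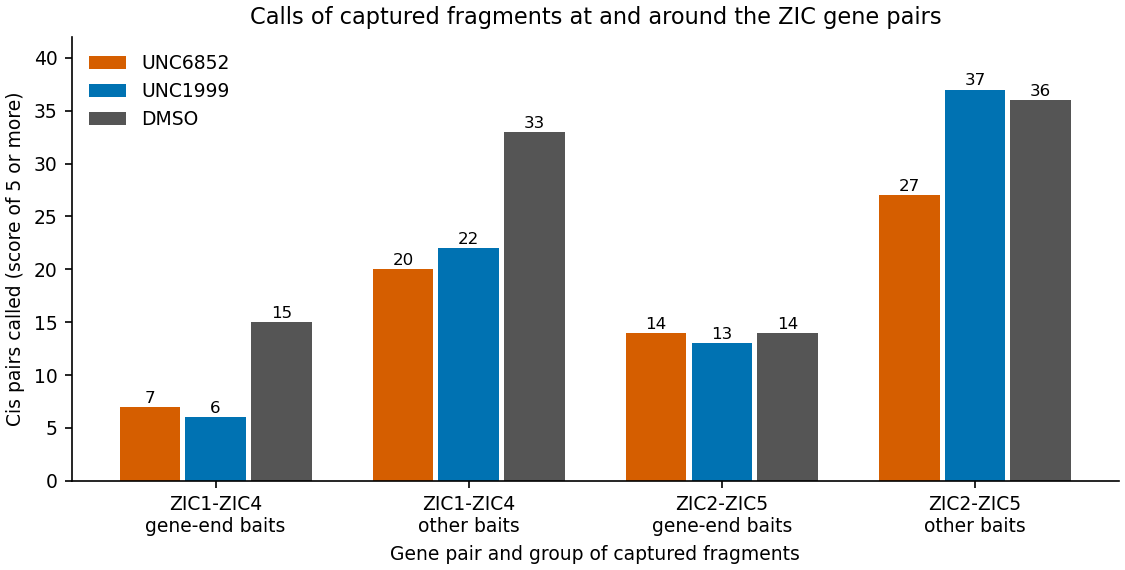
Number of cis pairs called (score of 5 or more) from captured fragments at the ends of the ZIC genes and from other captured fragments within 10 kb of each gene pair, counted by bait, in the 3 pooled profiles. At ZIC1 and ZIC4 the DMSO bar is the highest for both groups of baits, while at ZIC2 and ZIC5 the gene-end bars stand at 14 in UNC6852, 13 in UNC1999 and 14 in DMSO. The other baits at ZIC1 and ZIC4 include captured fragments inside ZIC1, which hold 11 of the DMSO calls.

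Counted by bait over each whole gene pair, DMSO had the most calls at ZIC1 and ZIC4, and at ZIC2 and ZIC5 it did not exceed both treated profiles. Around ZIC1 and ZIC4, 26 pairs of gene-end baits had 7 calls in UNC6852, 6 in UNC1999 and 15 in DMSO. The 71 pairs of the other baits, 24 of 28 of which had a cis pair, had 20 in UNC6852, 22 in UNC1999 and 33 in DMSO. Of these 71, 14 came from baits inside ZIC1, away from its ends, with 1 call in UNC6852, 2 in UNC1999 and 11 in DMSO. The mean asinh score of these 71 pairs was 1.38 in UNC6852, 1.45 in UNC1999 and 1.40 in DMSO, so it did not follow the number of calls. Around ZIC2 and ZIC5, the gene-end bait had 14 calls in UNC6852, 13 in UNC1999 and 14 in DMSO over 26 pairs, and the 13 other baits had 27 in UNC6852, 37 in UNC1999 and 36 in DMSO over 90 pairs.

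Averaged over its pairs, ZIC4 was lowest in UNC1999 and ZIC1 was lowest in DMSO. The mean asinh score of ZIC4 was 1.83 in UNC6852, 1.40 in UNC1999 and 1.99 in DMSO, a difference from DMSO of -0.16 for UNC6852 and -0.59 for UNC1999. Without the 2 contacts over 2 Mb, which scored 0 outside UNC6852, its UNC6852 difference was -0.41, while means over baits gave -0.0076. The 17 pairs at the 5′ end gave 0.19, with the contact 127863 kb away kept among them. Their median difference was -0.12, and 10 of the 17 were lower in UNC6852 than in DMSO. ZIC5 had 2.22 in UNC6852, 2.04 in UNC1999 and 2.23 in DMSO, with differences of -0.017 with UNC6852 and -0.19 with UNC1999. Without its single pair from beyond ZIC2 the UNC1999 difference of ZIC5 was -0.12. ZIC1 had 2.01 in UNC6852, 1.66 in UNC1999 and 0.96 in DMSO, and differences of 1.06 with UNC6852 and 0.70 with UNC1999 over 5 pairs. With gene ends taken to 5000 bp these were 0.017 with UNC6852 and -0.076 with UNC1999 over 59 pairs. That width takes in the fragments at the ZIC4 5′ end, 1257 to 3665 bp from the ZIC1 start. Their pairs then count for both genes. The ZIC1 values therefore rest on the few pairs of its 3′-end fragment.

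Set among the 4979 protein-coding genes with at least 3 cis pairs, ZIC4 and ZIC5 lay below the median for both compounds and ZIC1 near the top. The median gene had 6 pairs, ZIC1 had 5, and ZIC4 and ZIC5 had 27 each. The ranks thus compare means over unlike numbers of pairs, and that of ZIC1 rests on few. The medians of all genes were 0.069 for UNC6852 minus DMSO and -0.0076 for UNC1999 minus DMSO. A fall of 0.5 or more was seen in 13.6% of genes with UNC6852 and in 16.3% with UNC1999, and a gain of that size in 18.3% with UNC6852 and 15.7% with UNC1999. Counted from the lowest, ZIC4 stood at rank 1515 for UNC6852 and 666 for UNC1999, ZIC5 at 2101 with UNC6852 and 1686 with UNC1999, and ZIC1 at 4751 with UNC6852 and 4516 with UNC1999. Of the 27 ZIC4 pairs, 19 were lower in UNC6852 than in DMSO and 18 lower in UNC1999 than in DMSO, beside 45.2% of all cis pairs with UNC6852 and 47.4% with UNC1999. At ZIC5 it was 14 of 27 for each compound.

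**Figure D4:**
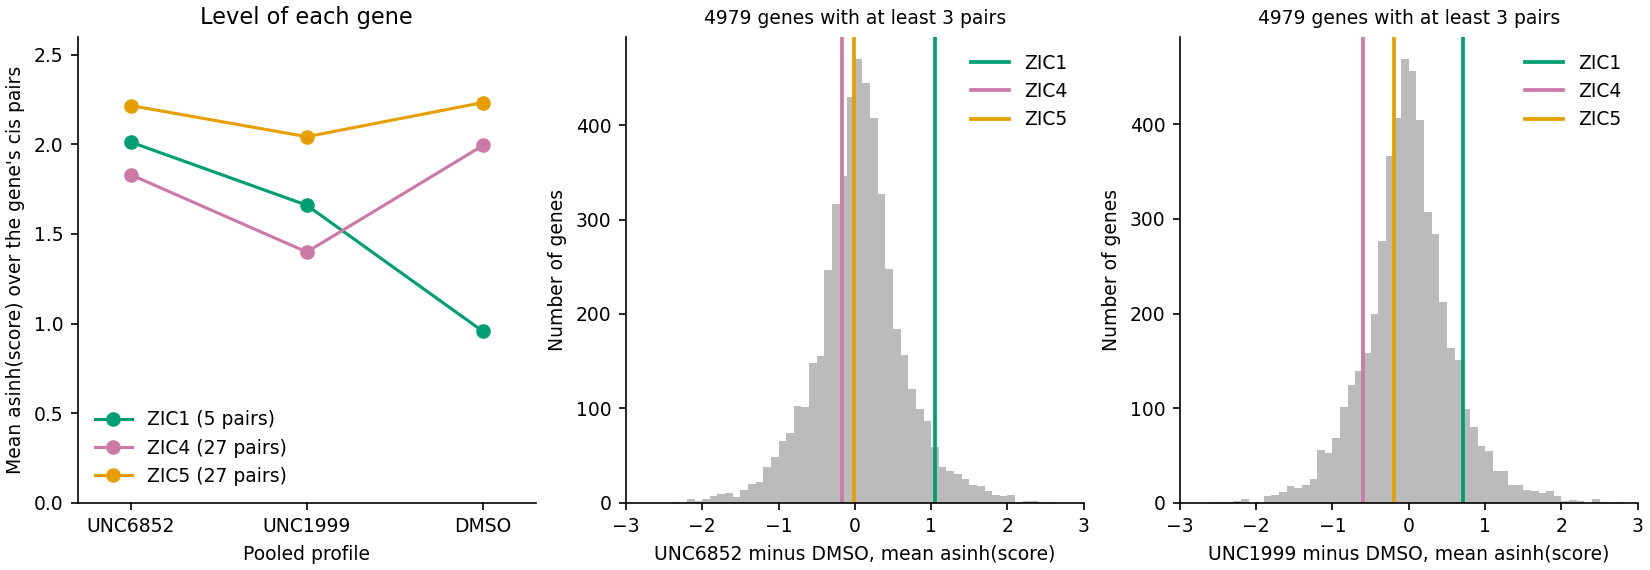
Left, mean asinh(score) over the cis pairs of ZIC1, ZIC4 and ZIC5 in the 3 pooled profiles; middle and right, the number of protein-coding genes by mean asinh(score) of UNC6852 or UNC1999 minus DMSO, with lines at the ZIC genes. Lines of ZIC4 and ZIC5 lie within the bulk of the 4979 genes, and that of ZIC1 lies in the upper tail, at 1.06 for UNC6852 and 0.70 for UNC1999.

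Genes with the most similar levels over the 3 profiles were sought among those with at least 10 cis pairs, by the distance between their 3 mean asinh scores. Nearest to ZIC4 were SHISA6, an AMPA receptor auxiliary protein (distance 0.068), NOD1, a sensor of bacterial peptidoglycan (0.12), and SLC44A3, a choline transporter-like protein (0.13). Nearest to ZIC5 were CCDC83 (0.044), the readthrough gene HOXA10-HOXA9 (0.047) and LOC124900971 (0.066). Nearest to ZIC1 were FAM163A (0.15), the metallothionein MT1H (0.18) and CEP55, a protein of the last step of cell division (0.19). The measure uses 3 values a gene, and 1564 to 1565 genes were searched.

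Genes related to the ZIC family by function differed in both directions. Of 6 zinc finger genes of the related GLI and GLIS families, 2 had at least 3 pairs. GLI3, an effector of hedgehog signalling, differed by -0.26 with UNC6852 and -0.76 with UNC1999 over 6 pairs, and GLIS1 by -0.46 with UNC6852 and -0.14 with UNC1999 over 5. Of 12 holoprosencephaly genes, 4 were measured, with medians of 0.055 with UNC6852 and 0.37 with UNC1999. Among them SIX3, a forebrain homeobox gene, differed by 0.50 with UNC6852 and 0.58 with UNC1999 over 32 pairs and GAS1, a hedgehog coreceptor, by 0.15 with UNC6852 and 0.46 with UNC1999 over 16. The signalling protein SHH differed by -0.041 with UNC6852 and 0.27 with UNC1999, and its receptor PTCH1 by -0.049 with UNC6852 and -0.12 with UNC1999.

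Of 12 genes of the dorsal neural tube and neural crest, in which ZIC1 is used, 9 were measured, with medians of 0.25 for UNC6852 minus DMSO and 0.054 for UNC1999 minus DMSO. WNT3A, a dorsal Wnt ligand, was the lowest, at -0.66 with UNC6852 and -0.44 with UNC1999, and MSX1, a homeobox gene downstream of BMP, the highest, at 0.51 with UNC6852 and 0.72 with UNC1999. SNAI2, a repressor of epithelial genes in migrating crest, had the most pairs, 94, and differed by 0.34 with UNC6852 and 0.054 with UNC1999. The homeobox genes PAX3, MSX2 and LMX1A and the crest factor TFAP2A lay between -0.088 and 0.40 with either compound, and the hindbrain factor ATOH1 and the ligand WNT1 between -0.34 and 0.071. Of 9 genes of formative and primed pluripotency, 4 were measured, with medians of 0.18 with UNC6852 and 0.28 with UNC1999. POU3F1, a formative-state POU factor, differed by 0.21 with UNC6852 and 0.45 with UNC1999 over 32 pairs, OTX2 by 0.16 with UNC6852 and 0.12 with UNC1999 over 17, FGF5 by -0.055 with UNC6852 and 0.027 with UNC1999 over 27 and SFRP2 by 0.42 with UNC6852 and 0.54 with UNC1999 over 5. Over the pairs of these 4 genes, 34 were called in UNC6852, 43 in UNC1999 and 28 in DMSO. For the dorsal neural tube and crest list it was 108 in UNC6852, 86 in UNC1999 and 71 in DMSO. The holoprosencephaly list had 22 in UNC6852, 31 in UNC1999 and 17 in DMSO, and the GLI and GLIS genes 4, 3 and 6. More calls in the treated profiles were thus not particular to the pluripotency genes. These are counts and not shares. Of all cis pairs, 46.1% were called in UNC6852, 42.3% in UNC1999 and 42.4% in DMSO.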

How the data were processed

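Each deposited value is a CHiCAGO score of a pair of fragments, in 1 column per condition pooled over its 15 libraries, per the file headers and the labels. The genome build is GRCh38, per the submitters' processing notes. Aligner, caller version and settings are not given in the sources used here. The scores are never negative, and each listed pair reached 5 in at least 1 column.

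From these scores, pairs were assigned to a gene when a fragment reached within 1000 bp of either RefSeq end of it. Calls, kept shares with exact (Clopper-Pearson) 95% intervals, and means of asinh(score) over a gene's pairs were computed, treated minus DMSO. Fragment starts were checked against GATC in RefSeq promoter windows, where 1655 of 1655 matched. The calculation of gene means was tested on simulated scores with planted shifts. No test between conditions was possible.

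The genes and lists were chosen with earlier results of these data known. Named by rule were the ZIC genes, protein-coding genes at partners called in at least 2 profiles, per gene pair the 5 contacts of highest mean score at 20 kb or more and, per compound, the 3 lowest and 3 highest differences, and for each ZIC gene the 3 nearest genes in score. Adjoining baits, the LINC02032 and CLYBL-AS2 names and the other ZIC1 pairs were added after their values were seen. Alternatives were other thresholds, distances, gene-end widths, scalings and groupings. Python 3.11.15, numpy 2.4.6, pandas 2.3.3, scipy 1.17.1 and matplotlib 3.10.9 were used. In the related lists, 1 gene is not reported here, and list values were computed without it.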

Additional observations from a re-analysis of the deposited data

Results flagged for a closer look

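Contacts with other chromosomes were outside the comparisons above. Gene-end fragments of the ZIC genes had 65 such pairs. Of these, 23 were called in UNC6852 (35.4%), 24 in UNC1999 (36.9%) and 18 in DMSO (27.7%). Over all 281836 pairs between chromosomes, 96770 were called in UNC6852 (34.3%), 101879 in UNC1999 (36.1%) and 84499 in DMSO (30.0%). The ZIC shares thus lay near those of all such pairs. The ratio of calls to DMSO was 1.28 with UNC6852 and 1.33 with UNC1999 at the ZIC genes. Over all it was 1.15 with UNC6852 and 1.21 with UNC1999. No ZIC pair of this kind was called in more than 1 profile, and 0 joined the 2 ZIC gene pairs to each other. By gene, ZIC4 had 38 pairs, with 17 calls in UNC6852, 14 in UNC1999 and 7 in DMSO. The fragment chr3:147407000-147408108, between ZIC4 and ZIC1, held 11 of these in UNC6852, 4 in UNC1999 and 2 in DMSO, and without it ZIC4 had 6 in UNC6852, 10 in UNC1999 and 5 in DMSO. ZIC1 had 2 in UNC6852, 5 in UNC1999 and 6 in DMSO, ZIC5 had 3 in UNC6852, 4 in UNC1999 and 4 in DMSO, and ZIC2 had 1 in each.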

How the results depend on the processing

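No paired analysis was possible because each condition is 1 column pooled over its libraries, and for the same reason no replicate could be left out. Of 162 values recomputed under the alternatives, 91 stayed close to those reported and the rest moved. Of 48 gene differences among them, 6 turned in sign, 2 of these being differences of over 0.5. Differences are treated minus DMSO. At a score of 7, calls were 8 in UNC6852, 6 in UNC1999 and 10 in DMSO over the 4 genes, 2 in UNC6852, 1 in UNC1999 and 4 in DMSO at ZIC4 and 6 in UNC6852, 4 in UNC1999 and 6 in DMSO at ZIC5, with 16.7% of ZIC5 DMSO calls also called in UNC6852. At 10 they were 2 in UNC6852, 3 in UNC1999 and 3 in DMSO over the genes, 1 in UNC6852, 0 in UNC1999 and 2 in DMSO at ZIC4 and 1 in UNC6852, 3 in UNC1999 and 1 in DMSO at ZIC5, with 0% of DMSO calls kept in any of these sets. Gene ends within 0 bp left 1 pair, of ZIC4, with 0 calls in UNC6852, 1 in UNC1999 and 0 in DMSO and a UNC1999 difference of 0.42, against -0.59, so the sign turned. Within 5000 bp, calls were 47 in UNC6852, 59 in UNC1999 and 78 in DMSO over the genes, 14 in UNC6852, 17 in UNC1999 and 33 in DMSO at ZIC4 and 22 in UNC6852, 29 in UNC1999 and 27 in DMSO at ZIC5. There 16.7% of all DMSO calls and 33.3% of those at ZIC5 were also called in UNC6852, the ZIC1 differences were 0.017 with UNC6852 and -0.076 with UNC1999, that for UNC1999 of opposite sign, and that of ZIC5 was -0.28 for UNC6852. At this width ZIC1 and ZIC4 share pairs, as their starts lie 2821 bp apart. Other ends merged gave 15 calls in UNC6852, 11 in UNC1999 and 20 in DMSO over the genes and 6 in UNC6852, 2 in UNC1999 and 4 in DMSO at ZIC5. For UNC6852 minus DMSO at ZIC4, pairs of up to 2 Mb gave -0.41, those averaging 5 or more gave -0.60 and quantile-normalized scores -0.25. For ZIC5 the log2 scale gave -0.0079, quantile normalization -0.089 and pairs averaging 5 or more gave 0.0083 with UNC6852 and -0.13 with UNC1999. When only pairs with the gene as other end were used, differences were 0.64 with UNC6852 and 1.37 with UNC1999 at ZIC1, 0.020 with UNC6852 and -0.22 with UNC1999 at ZIC4 and 0.30 with UNC6852 and -2.14 with UNC1999 at ZIC5, and means over baits gave -0.0076 with UNC6852 and -0.21 with UNC1999 at ZIC4 and 0.14 with UNC6852 and -1.13 with UNC1999 at ZIC5. These settings rest on fewer pairs or weight baits with 1 pair as much as others, and no further cause was tested. Quantile normalization moved the median of all genes to -0.0071 with UNC6852 and -0.0063 with UNC1999. Read depth of the pooled profiles is unknown, so how far it bears on the numbers of calls could not be stated.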

Other observations

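Of the captured fragments inside the ZIC1 gene, away from its ends, 4 had cis pairs, 14 in all, which the choice by gene ends leaves out. These 14 are among the 71 pairs of other baits counted above. Of the 14, 1 was called in UNC6852 (7.14%), 2 in UNC1999 (14.3%) and 11 in DMSO (78.6%). Over all cis pairs it was 46.1% in UNC6852, 42.3% in UNC1999 and 42.4% in DMSO. Each of the 14 was called in exactly 1 profile, as were 77.5% of all cis pairs. The median score was 2.56 in UNC6852, 2.24 in UNC1999 and 5.74 in DMSO, and 11 pairs were lower than in DMSO with each compound. The fragments were picked out after their values were seen. The fragment at the 3′ end of ZIC1 had the opposite order, with 2 calls in UNC6852, 2 in UNC1999 and 1 in DMSO over 5 pairs.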
